A study of Mus musculus with 4 samples.

Results

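The cytochrome P450 (P450) enzymes were examined in aortic RNA as the 75 probe sets, for 62 genes, whose platform annotation names a single gene with a symbol of the form Cyp, family number, letter. They are part of 20380 single-gene probe sets for 12393 genes. Cyp51, a sterol synthesis enzyme with 3 probe sets, was left out by the same rule, and 4 probe sets that name several genes with a P450 among them were left out as well. A gene with several probe sets was described by the set of highest mean log2 signal, with the further sets beside it. The aortas came from female mice of 6 weeks that lacked apolipoprotein E (apoE-/-), which clears lipoprotein remnants from blood, so all groups shared this defect and no wild type was analysed here. The groups were C57BL/6 apoE-/- on chow, C57BL/6 apoE-/- on Western diet, C3H/HeJ apoE-/- on chow and C3H/HeJ apoE-/- on Western diet (C3H below). The diets differed for the last 2 weeks, from 4 weeks of age. Each group had 1 array, and the labels do not say whether animals were pooled. Without replicates the spread between animals is unknown, and the small number of arrays limits how precise each value can be.

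P450 enzymes are heme proteins that use oxygen and electrons from a redox partner to hydroxylate or epoxidise their substrates. Most members of the early-numbered families sit in the endoplasmic reticulum, act on drugs, steroids and fatty acids and are most abundant in liver, while a few mitochondrial members make steroids, oxysterols and active vitamin D. In vessels the superfamily is known for making vasoactive epoxides and hydroxy acids from arachidonic acid and for the extrahepatic enzyme Cyp1b1 of smooth muscle.

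Most P450 genes gave signals at the low end of the array. The floor used here, 83.6, is the 40th percentile of the quantile normalized signals, and lower signals serve only as bounds. Of the 62 P450 genes, 44 were above this floor on at least 1 array (71.0%, against 87.0% of all genes), 9 on all 4 (14.5%, against 45.6%) and 18 on none (29.0%, against 13.0%). By array, 24 and 21 exceeded the floor in C57BL/6 on chow and Western diet, and 29 and 19 in C3H. Of all 12393 genes, 8137 and 8100 did so in C57BL/6 on chow and Western diet, and 8170 and 8144 in C3H. The members above the floor on all 4 arrays were Cyp1b1, Cyp2b10, Cyp2c38, Cyp2d22, Cyp2e1, Cyp2f2, Cyp4b1, Cyp4v3 and Cyp27a1. A member that crosses the floor on 1 or 2 arrays can have large apparent ratios there, so differences of the other members are given as bounds.

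**Figure D1:**
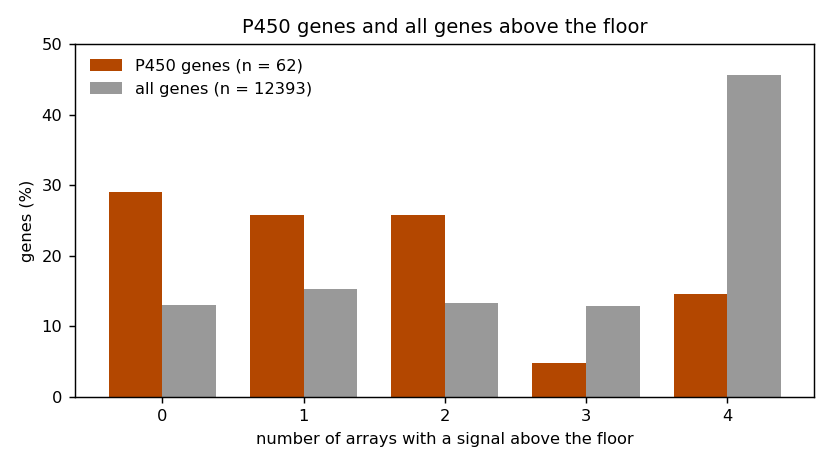
Share of genes (y axis, percent) by the number of arrays on which the representative probe set was above the floor signal of 83.6 (x axis), for the 62 P450 genes and all 12393 genes. P450 genes were above it on all 4 arrays in 14.5% of cases, against 45.6% of all genes.

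The tissue carried RNA of several cell types. Smooth muscle markers (6 of 6) were above the floor on every array, with a summed signal from 42952 on C3H chow to 98415 on C57BL/6 chow. Brown adipocyte markers (6 of 6) were above it on every array too, with sums of 42916 and 49687 in C57BL/6 on chow and Western diet and of 84222 and 57486 in C3H. Fibroblast and matrix markers summed to 59859 and 22286 in C57BL/6 and to 15489 and 29786 in C3H, with 1 of 6 under the floor on C3H chow and 0 on the other arrays. Heart muscle markers summed to 13712 and 10934 in C57BL/6 on chow and Western diet and to 311 and 333 in C3H. In bulk tissue, fewer cells of a type and less RNA per cell cannot be told apart. Markers of liver and of airway and lung were mostly under the floor, save the liver markers on C3H Western. On C57BL/6 chow, C57BL/6 Western, C3H chow and C3H Western, 5, 5, 4 and 2 of 6 liver markers were under it. Of 5 airway and lung markers, 4, 4, 4 and 3 were. The liver sum was 687 on C3H Western and 265 to 333 on the other arrays. The liver markers did not share 1 strain pattern. Albumin (Alb) gave 100.3 and 93.6 on C3H Western and chow and was under the floor in C57BL/6. Ahsg was above the floor on C57BL/6 chow (210.1) and C3H Western (198.8). Apoa2 gave 183.6, 191.1 and 187.5 on C57BL/6 Western, C3H chow and C3H Western, and Fgb was above the floor on C3H Western only (104.1). Ttr and Serpina1b were under it on every array. Of 5 kidney tubule markers, 4 or 5 were under the floor on each array. Of 5 measured markers of steroid-making cells, 1 to 3 were. The C3H chow array stood apart by an actin 3'/5' signal ratio of 2.28 against 1.63 to 1.83 on the others, and by log2 signal correlations of 0.705 to 0.726 with them. By the Gapdh 3'/5' ratio it did not, at 1.19 against 1.03 to 1.28 on the others, where C57BL/6 Western was the highest. Apoe itself gave 16.1 to 65.3, under the floor on every array.

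Cyp2b10, a drug and steroid hydroxylase known as the classical target of the constitutive androstane receptor, differed most among the 9 members measured on all 4 arrays. Its representative probe set (1422257_s_at) gave 346.5 and 1605 in C57BL/6 on chow and Western diet and 662.4 and 83.8 in C3H. C57BL/6 Western was thus the highest array, and C3H Western lay just above the floor. With Western diet it was 4.63-fold higher in C57BL/6 and 7.91-fold lower in C3H, and on Western diet it was 19.2-fold lower in C3H than in C57BL/6 (log2 -4.26). In the deposited values, before quantile normalization, the C3H Western signal was just under the floor, so that differences from it are bounds there. Both further probe sets had the same order of arrays. The set 1425645_s_at gave 363, 1666, 902 and 18.8 on C57BL/6 chow, C57BL/6 Western, C3H chow and C3H Western. Its last signal is under the floor, so on Western diet C3H was lower by at least 19.9-fold, and with diet it was 4.59-fold higher in C57BL/6 and at least 10.8-fold lower in C3H. The set 1451787_at gave 135.2, 522.7, 317.1 and 108.1, with smaller differences of 3.87-fold higher and 2.93-fold lower with diet and 4.84-fold lower in C3H on Western diet. On chow, C3H was 1.91-fold, 2.49-fold and 2.35-fold higher by the 3 sets. All differences by the 3 sets ran in the same direction within each of the 4 comparisons.

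**Figure D2:**
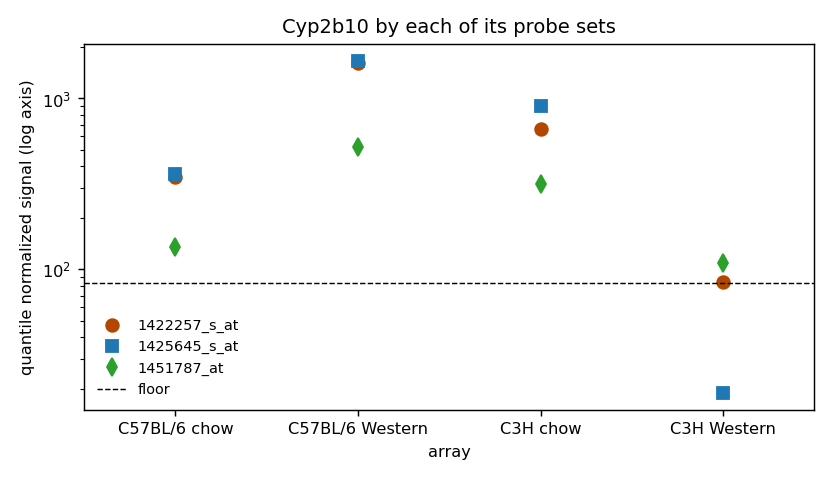
Quantile normalized signal (y axis, log scale) of Cyp2b10 on each array (x axis) by each of its 3 probe sets (symbols), with the floor of 83.6 as a dashed line. All 3 sets were highest on C57BL/6 Western and lowest on C3H Western, and levels of different sets are not comparable.

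By the maker's naming, the suffix _s_at marks a set whose probes match more than 1 transcript, so in the sets 1422257_s_at and 1425645_s_at signal from related genes cannot be told apart from that of Cyp2b10. The nearest related genes in the RefSeq table, Cyp2b13 and Cyp2b9, follow Cyp2b10 directly on chromosome 7, and by sets of their own they were under the floor on every array, with signals of 17.4 to 77.4 and 12.1 to 50.4. Cyp2s1, an epithelial member on the other side of Cyp2b10, was above the floor on C3H chow only (90.2). Cyp2b19, known from skin, gave 34.4 and 50.6 in C57BL/6 on chow and Western diet and 193.5 and 59.7 in C3H. It was at least 2.31-fold higher in C3H on chow. The receptor Nr1i3 that induces Cyp2b10 was under the floor on every array (6.28 to 27.3), and the related xenobiotic receptor Nr1i2 gave 39.5, 118.4, 159.9 and 165.9 on C57BL/6 chow, C57BL/6 Western, C3H chow and C3H Western.

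The start regions of 4 members that were above the floor on every array and whose differences are described here follow as RefSeq gives them for GRCm38.p6, from 250 bases before to 50 after the annotated start, 5′ to 3′ on the strand of the gene. Cyp2b10 lies at chr7:25897408-25897707 on the + strand, Cyp1b1 at chr17:79715012-79715311 on the - strand, Cyp2e1 at chr7:140763569-140763868 on the + strand and Cyp4b1 at chr4:115647672-115647971 on the - strand. Capitals mark matches on either strand to GCGTG, the core bound by the aryl hydrocarbon receptor, TATAAA, the TATA box, or AGGTCA, a half-site of nuclear receptors.
Cyp2b10: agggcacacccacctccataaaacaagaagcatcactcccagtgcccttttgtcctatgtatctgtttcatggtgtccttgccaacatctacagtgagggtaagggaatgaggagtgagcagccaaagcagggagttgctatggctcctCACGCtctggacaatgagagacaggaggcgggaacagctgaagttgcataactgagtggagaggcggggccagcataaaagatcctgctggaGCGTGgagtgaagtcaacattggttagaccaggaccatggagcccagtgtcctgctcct
Cyp1b1: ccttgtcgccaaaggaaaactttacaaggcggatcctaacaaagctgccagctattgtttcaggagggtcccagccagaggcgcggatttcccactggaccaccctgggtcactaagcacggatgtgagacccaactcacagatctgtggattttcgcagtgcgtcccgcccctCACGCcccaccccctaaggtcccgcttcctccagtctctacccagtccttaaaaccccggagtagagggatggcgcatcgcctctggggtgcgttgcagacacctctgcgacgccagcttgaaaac
Cyp2e1: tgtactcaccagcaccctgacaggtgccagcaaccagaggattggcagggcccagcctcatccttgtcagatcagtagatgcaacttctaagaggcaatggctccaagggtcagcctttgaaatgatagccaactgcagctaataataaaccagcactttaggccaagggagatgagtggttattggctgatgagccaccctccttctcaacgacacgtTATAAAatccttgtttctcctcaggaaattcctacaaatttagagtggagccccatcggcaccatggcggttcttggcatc
Cyp4b1: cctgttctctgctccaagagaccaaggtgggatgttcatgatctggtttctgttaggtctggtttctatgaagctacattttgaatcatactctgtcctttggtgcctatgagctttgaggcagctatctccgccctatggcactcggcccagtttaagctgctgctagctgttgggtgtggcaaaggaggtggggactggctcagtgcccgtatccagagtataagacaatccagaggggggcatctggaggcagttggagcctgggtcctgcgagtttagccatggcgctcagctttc
The matches did not overlap. Cyp2b10 held 2 matches to GCGTG (on the - strand at -101 and on the + strand at -9 relative to the start), Cyp1b1 held 1 on the - strand at -76, Cyp2e1 held TATAAA at -31, and Cyp4b1 held none of the 3. Of 32851 such windows of all genes, 32.4% held GCGTG, 13.6% TATAAA and 16.3% AGGTCA. Of the 52 windows of the 45 P450 genes in that table, 11 (21.2%), 19 (36.5%) and 13 (25%) did. A match is a description of the letters and not a bound site.

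Among the inducible enzymes of family 1, Cyp1b1, which hydroxylates estrogens and polycyclic hydrocarbons, was lower in C3H than in C57BL/6 on both diets by its representative set. That set (1416612_at) gave 1405 and 1675 in C57BL/6 on chow and Western diet and 857.2 and 853.2 in C3H, so both C57BL/6 arrays were above both C3H arrays. On chow the C3H signal was lower by 1.64-fold, and the Western arrays differed by 1.96-fold (log2 -0.97), both under the 2-fold threshold, with a fitted strain difference of log2 -0.84 (SE 0.30). Its adjusted p in limma was 0.649, the lowest among P450 probe sets, at an unadjusted p of 0.0124. On Western diet it passed 2-fold with the deposited values, equal array medians and cyclic loess (log2 -1.04, -1.10 and -1.01). The heart muscle marker sum was lower in C3H on both diets too (13712 and 10934 in C57BL/6 on chow and Western diet, 311 and 333 in C3H). The smooth muscle and fibroblast sums were lower in C3H on chow, and on Western diet the smooth muscle sums were 74149 in C57BL/6 and 70311 in C3H while the fibroblast sum was higher in C3H. The part of these cell types in the Cyp1b1 difference was not tested. The set 1416613_at differed from it, with 151.7 and 94.9 in C57BL/6 on chow and Western diet and 292.8 and 103.5 in C3H. By that set, C3H was the higher strain, by 1.93-fold on chow and by 1.09-fold for the Western arrays. The set 1432081_at was above the floor on C57BL/6 Western only (94.9). Cyp1a1, the textbook target of the aryl hydrocarbon receptor, gave 90.5 and 187.8 in C57BL/6 on chow and Western diet and 45.3 and 11.8 in C3H. It was 2.08-fold higher with Western diet in C57BL/6, from a chow signal little above the floor, and just under the threshold with the deposited values (log2 0.99). On Western diet the C3H signal was lower by at least 2.25-fold. Cyp1a2, its liver neighbour, was under the floor on every array. The receptor Ahr gave 99.3 to 134 and its partner Arnt 145 to 241, and neither reached 2-fold in any comparison.

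Cyp2e1, which oxidises ethanol, acetone and other small molecules, was highest on C57BL/6 Western. It gave 1432 and 3737 in C57BL/6 on chow and Western diet and 1441 and 1804 in C3H. The chow arrays of both strains were within 1.01-fold of each other. Western diet went with a signal higher by 2.61-fold in C57BL/6 and by 1.25-fold in C3H, and the strains differed by 2.07-fold on Western diet, with C3H the lower. Its fitted diet difference over both strains was log2 0.85 (SE 0.32), with an unadjusted p of 0.0162 and an adjusted p of 1 in limma. Cyp2f2, known from airway club cells, was also higher with Western diet in both strains, with 112.9 and 222.0 in C57BL/6 and 114.4 and 200.03 in C3H. These are differences of 1.97-fold and 1.75-fold, under the threshold (over it in C57BL/6 with equal array medians, at log2 1.02), and the chow arrays differed by 1.01-fold. The club cell marker Scgb1a1 was above the floor on C3H chow only (177.9). The other airway and lung markers differed from it. Sftpd was above the floor on the Western arrays only, with 125.9 in C57BL/6 and 118.4 in C3H. Foxj1 was above it on C3H Western only (105.7), Sftpc on C57BL/6 chow only (93.7) and Sftpa1 on no array. The part of airway cells in the Cyp2f2 differences was not tested.

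The other drug-metabolising members of families 2 and 3 were mostly near or under the floor. Of the 21 genes in this group, 15 were above it on at least 1 array (71.4%, against 87.0% of all genes). On all arrays 4 were (Cyp2b10, Cyp2d22, Cyp2e1 and Cyp2f2, 19.0%, against 45.6%). Cyp2d22 gave 238.1, 234.5, 312.9 and 122.8 on C57BL/6 chow, C57BL/6 Western, C3H chow and C3H Western. Between the C3H arrays, Western was the lower by 2.55-fold. Its further set gave 215.7, 437.0, 284.4 and 39.3, so that both sets were lowest on C3H Western, at least 3.40-fold under C3H chow by the further set. They differed in C57BL/6, where the further set was 2.03-fold higher with Western diet and the representative set 1.02-fold lower. For Cyp2d13 the sets disagreed outright. The set 1431803_at gave 200.8 and 138.7 in C57BL/6 on chow and Western diet and 22.6 and 23.5 in C3H, so chow-fed C3H was lower by at least 2.40-fold. The set 1425365_a_at was above the floor on C3H chow only, with 227.6, at least 2.72-fold higher than C57BL/6 chow. Cyp2g1, known from olfactory epithelium, gave 179.0 and 120.2 on the chow arrays of C57BL/6 and C3H and 8.64 and 27.7 on the Western arrays. It was at least 2.14-fold lower with Western diet in C57BL/6. The 5 Cyp3a genes, which oxidise steroids and many drugs in liver and gut, were above the floor on at most 2 arrays each. Cyp3a11 gave 146.2 on C57BL/6 chow and 86.5 on C3H chow, Cyp3a25 113.7 on C3H Western and Cyp3a44 86.3 on C3H Western, and none of the 3 reached 2-fold by bound.

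The arachidonic acid epoxygenase subfamilies, the source of vasodilating epoxides, had 15 genes. Of these, 13 were above the floor somewhere (86.7%, near the 87.0% of all genes). Only Cyp2c38 was above it on all 4 arrays (6.67%, against 45.6% of all genes). Cyp2c38 gave 163.9, 275.6, 221.9 and 104.5 on C57BL/6 chow, C57BL/6 Western, C3H chow and C3H Western. On Western diet C3H was lower by 2.64-fold than C57BL/6. Between the C3H arrays it was lower by 2.12-fold on Western diet, and the 1.68-fold higher value with Western diet in C57BL/6 stayed under the threshold. Its order of arrays, C57BL/6 Western first and C3H Western last, was that of Cyp2b10. Cyp2c70, which hydroxylates bile acids in mouse liver, gave 73.5, 137.7, 117.0 and 176.3 on C57BL/6 chow, C57BL/6 Western, C3H chow and C3H Western. Neither its measured differences nor its bounds against C57BL/6 chow, which was under the floor, reached 2-fold. Cyp2c54 was above the floor on C57BL/6 chow (96.4) and C3H Western (171.8). C3H Western was thus higher by at least 2.05-fold than C57BL/6 Western and C3H chow, which with cyclic loess was under the threshold for diet (log2 0.89). Cyp2c68 was above the floor on C57BL/6 Western (109.6) and C3H chow (167.7). C3H chow was thus higher by at least 2.01-fold than C57BL/6 chow and C3H Western, and the latter difference was under the threshold with equal array medians and cyclic loess (log2 -0.97 and -0.87). Cyp2c23, a renal epoxygenase, exceeded the floor on C57BL/6 chow only (88.5) and Cyp2j5 on C3H chow only (89.8).

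Among the enzymes that metabolise these lipids further, Ephx2, the soluble epoxide hydrolase that inactivates the epoxides, gave 2395 and 3623 in C57BL/6 on chow and Western diet and 3604 and 3659 in C3H. It was lowest on C57BL/6 chow, and no comparison reached 2-fold. Ptgis, the prostacyclin synthase of the vessel wall, gave 5742 and 4868 in C57BL/6 and 2628 and 5060 in C3H, where chow was lower than C57BL/6 chow by 2.18-fold. Of the 8 measured genes of the eicosanoid list, 1 was lower by 2-fold or more in chow-fed C3H and 0 higher (of 4 above the floor on both arrays), where 9.1% of all genes were lower and 8.01% higher, so nothing is read from this count. None of the 8 passed 2-fold above the floor in the other 3 comparisons. By bound, Ptgs2, the inducible prostaglandin synthase, was higher by at least 2.24-fold on C3H Western than on C3H chow (14.1). Alox15, a lipoxygenase, gave 181.9 and 68.0 in C57BL/6 on chow and Western diet and 56.9 and 211.4 in C3H. The 2 arrays under the floor were thus lower by at least 2.18-fold than C57BL/6 chow and by at least 2.53-fold than C3H Western.

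Family 4 holds fatty acid and eicosanoid hydroxylases. Cyp4b1, which hydroxylates fatty acids and protoxins, gave 403.3 and 1356 in C57BL/6 on chow and Western diet and 994.5 and 901.1 in C3H. C57BL/6 chow was the lowest array and the other 3 lay within 901.1 to 1356. Against C57BL/6 chow, it was 3.36-fold higher on C57BL/6 Western and 2.47-fold higher on C3H chow, and the C3H arrays differed by 1.10-fold. The fatty acid receptor gene Ppara also had its lowest signal on C57BL/6 chow, with 244.3, 1043, 1150 and 962.3 on C57BL/6 chow, C57BL/6 Western, C3H chow and C3H Western. Cyp4v3, a fatty acid hydroxylase of many tissues, was lowest on C57BL/6 chow as well, with 200.7 there and 346.5, 367.6 and 376.9 on the other arrays, and spanned 1.88-fold over the 4 arrays. Its further set had the same lowest array (99.5, against 122.8 to 166.9). The brown adipocyte sum was lowest on the same array, although its member Ucp1 was lowest on C57BL/6 Western (9098). The sum of white and general adipocyte markers was lowest on C57BL/6 chow too (34452, against 41278 to 55420), although its member Retn was lowest on C3H Western (155.0). The part of adipocytes in these differences was not tested. Cyp4f13, a relative of the leukotriene hydroxylases, gave 261.7 and 159.5 in C57BL/6 on chow and Western diet and 15.2 and 19.6 in C3H, so that C3H was lower by at least 3.13-fold on chow and by at least 1.91-fold on Western diet. The heart muscle sum differed in the same direction on both diets, and its part in this difference was not tested. In limma its strain difference had an unadjusted p of 0.0263 and an adjusted p of 0.762. Of the other family 4 genes, Cyp4f14 (91.5, C3H chow) and Cyp4a12a (85.6, C3H Western) crossed the floor once, and Cyp4f15 reached 105.7 and 136.9 on the chow arrays. Cyp4a14 and Cyp4a31, liver targets of Ppara, were under the floor on every array.

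**Figure D3:**
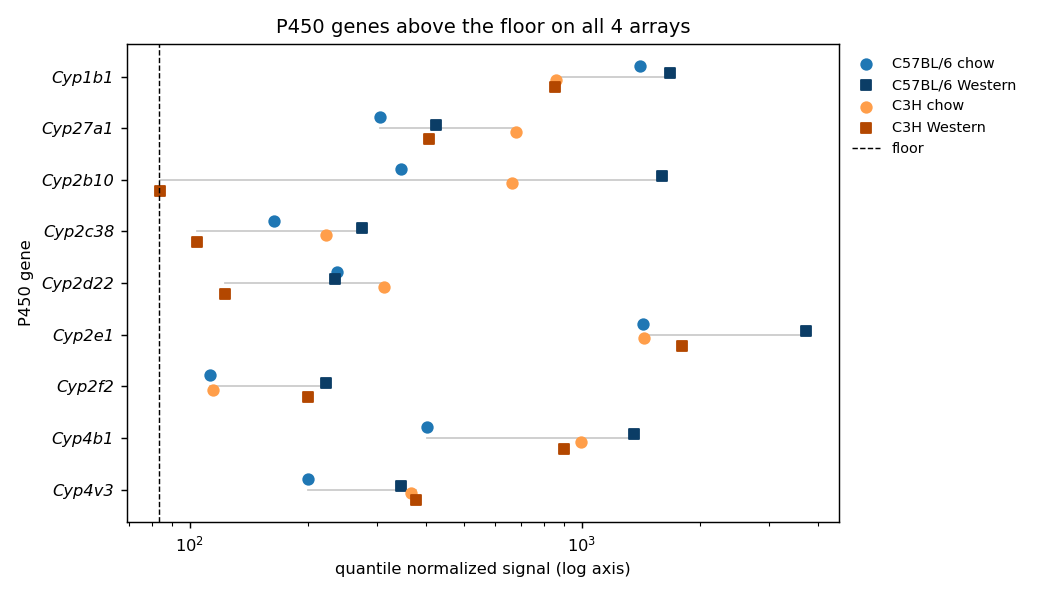
Quantile normalized signal (x axis, log scale) of the 9 P450 genes above the floor (dashed line, 83.6) on all 4 arrays, with 1 symbol per array (colour for strain and diet, offset vertically so that equal values stay visible). Levels of different genes come from different probes and are not comparable. Cyp2b10 spans 83.8 to 1605, and Cyp4b1 is lowest on C57BL/6 chow.

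Among the sterol hydroxylases, Cyp27a1, a mitochondrial enzyme that turns cholesterol into an oxysterol, was above the floor on all arrays. It gave 306.5 and 424.7 in C57BL/6 on chow and Western diet and 677.8 and 406.8 in C3H, with C3H chow the highest. On chow C3H was 2.21-fold higher (log2 0.97 and under the threshold with equal array medians), and on Western diet the strains were within 1.04-fold. Cyp7a1, the rate-limiting enzyme of bile acid synthesis in liver, gave 115.9 and 154.2 in C57BL/6 and 243.5 and 5.79 in C3H by its set 1438743_at. On chow C3H was 2.10-fold higher (log2 0.99 with equal array medians), and C3H Western was lower by at least 2.91-fold than C3H chow. Its other set, 1422100_at, was under the floor on every array (9.84 to 65.0). Cyp46a1 was above the floor on C57BL/6 chow (110.2) and C3H Western (106.7), Cyp39a1 on C57BL/6 chow only (146.0), and Cyp8b1 on no array. Cyp7b1, which hydroxylates oxysterols, was under the floor everywhere by its representative set and reached 108.7 on C57BL/6 Western by its other set. The oxysterol receptor gene Nr1h3 gave 143.6 to 227.4 and differed by under 2-fold in each comparison.

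Enzymes of steroid hormone and vitamin synthesis were close to or under the floor. Cyp11a1, which starts steroid synthesis from cholesterol, and Cyp17a1 were under it on every array. Cyp11b2, the aldosterone synthase, exceeded it on C57BL/6 Western only (112.7). Cyp21a1 gave 110.3 and 156.8 in C3H on chow and Western diet by 1 set and was under the floor on every array by the other. Star, which carries cholesterol to Cyp11a1, gave 113.8 to 168.3. Cyp24a1, which inactivates vitamin D, gave 120.8 on C3H chow, and Cyp27b1, which activates it, gave 96.4 there, while Cyp26a1, which breaks down retinoic acid, was under the floor on every array. None of these reached 2-fold, measured or by bound, in any comparison.

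Counted over the members, 3 of the 14 P450 genes above the floor on both chow arrays were at least 2-fold higher in C3H (Cyp27a1, Cyp4b1 and Cyp7a1) and 0 lower. Over all genes 8.01% were higher and 9.1% lower, 17.1% in either direction. On Western diet 0 of 12 were higher and 3 lower in C3H (Cyp2b10, Cyp2c38 and Cyp2e1), against 4.07% and 4.2% of all genes (8.27% in either direction). With equal array medians the genes called on chow were 394 higher and 684 lower, against 529 and 601 by quantile normalization, and those with diet in C3H 543 and 280, against 433 and 393. With Western diet in C57BL/6, 4 of 15 were higher (Cyp1a1, Cyp2b10, Cyp2e1 and Cyp4b1) and 0 lower, against 3.75% and 3.93% of all genes (7.67%). With Western diet in C3H, 0 of 12 were higher and 3 lower (Cyp2b10, Cyp2c38 and Cyp2d22), against 6.47% and 5.87% of all genes (12.3%). The member shares in either direction were 21.4%, 25%, 26.7% and 25%, so that on chow the share lay near that of all genes, and each of the others rests on 3 or 4 genes. Median log2 differences of the members measured on both arrays were 0.38, -0.47, 0.70 and -0.01 in this order, against 0.03, 0.00, 0 and -0.01 for all genes. The comparisons share arrays in pairs and are not independent of each other. By bound, with 1 array under the floor, 2 of 25 members were higher and 2 lower in C3H on chow (all genes, 14.6% and 13.5%). On Western diet 1 of 16 was higher and 1 lower (10.3% and 9.46%). With Western diet, 0 of 15 were higher and 1 lower in C57BL/6 (10.7% and 9.91%), and 1 of 24 was higher and 3 lower in C3H (12.5% and 13.3%).

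**Figure D4:**
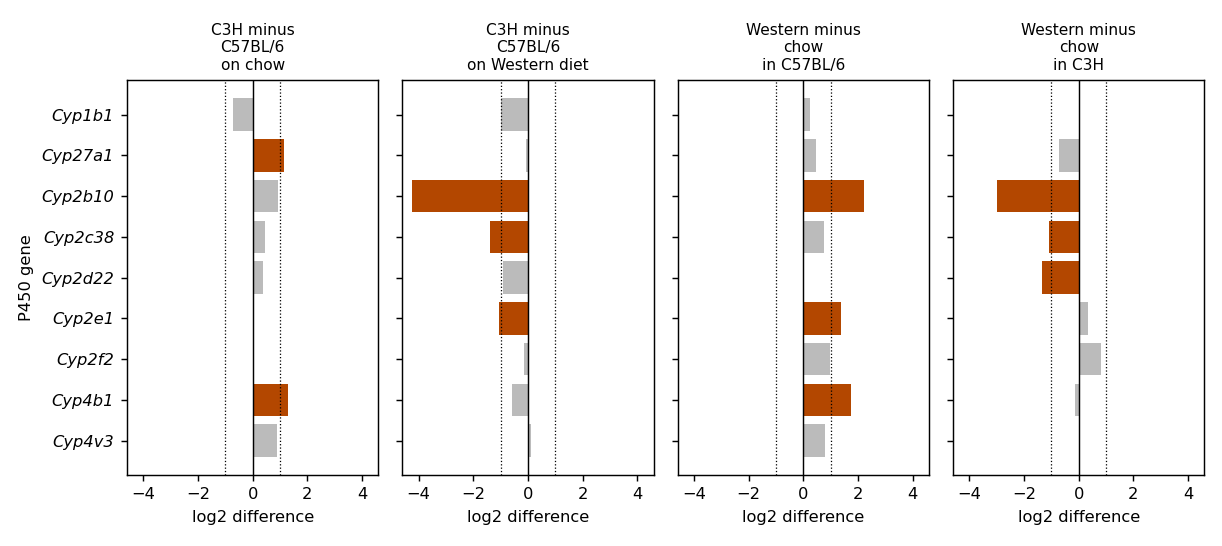
Log2 difference (x axis) of the 9 P450 genes above the floor on all 4 arrays, with 1 panel per comparison and bars past 2-fold (dotted lines at -1 and 1) in brown. Cyp2b10 is log2 2.21 higher with Western diet in C57BL/6 and -2.98 in C3H.

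Of the 9 members above the floor on all 4 arrays, 6 had their highest signal on C57BL/6 Western (66.7%, against 21.3% of 5646 such genes), 2 on C3H chow and 1 on C3H Western. With Western diet 5 of the 9 were higher in C57BL/6 and lower in C3H (Cyp1b1, Cyp2b10, Cyp2c38, Cyp4b1 and Cyp27a1), against 27.7% of all such genes. The reverse pattern held for 0 of the 9, so that 55.6% of them and 54.7% of all such genes had responses of opposite sign. In Cyp1b1 and Cyp4b1 the C3H difference was small (log2 -0.01 and -0.14). Counts over the 9 rest on the representative sets and change with the set. By 1416613_at, Cyp1b1 was lower with diet in both strains (log2 -0.68 and -1.50) and highest on C3H chow. The further sets of Cyp2d22 and Cyp4v3 were higher with diet in C57BL/6 and lower in C3H, unlike their representative sets. Both further sets of Cyp2b10 kept its pattern. Whether the strains respond differently could not be tested, because 4 arrays leave nothing to estimate its error.

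An additive limma fit with strain and diet terms, which takes the unreplicated interaction as its error (1 residual degree of freedom), was run over 14915 probe sets, 33 of them P450 sets. For strain, 0 of the 33 P450 sets passed an adjusted p of 0.05 (0.382% of all sets did). At an unadjusted p under 0.05 there were 4, 2 of them sets of Cyp2b10, against 873 of all 14915 sets. For diet, 0 passed (0.0% of all sets), with 1 at an unadjusted p under 0.05, against 367 of all 14915 sets. Such a fit treats an opposite response of the strains, as in Cyp2b10, as noise. For scale, probe sets of the same gene differed from each other within a comparison by a pooled SD of log2 0.51 to 0.62, over 2047 to 2202 genes with several measured sets. This SD covers disagreement between probe sets on the same arrays and says nothing about the spread between animals, which was not measured.

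RNA of the redox partners of P450 enzymes was above the floor more evenly than that of the P450 genes. All 7 measured redox partner genes were above the floor on all 4 arrays, as were 45.6% of all genes. The cytochrome b5 gene Cyb5a gave 828 to 1190, the mitochondrial ferredoxin gene Fdx1 861 to 1480, and the P450-binding Pgrmc1 1274 to 1779. The cytochrome b5 reductase gene Cyb5r3 had its lowest signal on C3H chow, 2.19-fold under C57BL/6 chow and 2.15-fold under C3H Western, and no other of the 7 reached 2-fold in any comparison. Of 13 receptor genes, 10 were above the floor somewhere, as were 87.0% of all genes. Ppara was 4.71-fold higher on C3H chow and 4.27-fold higher on C57BL/6 Western than on C57BL/6 chow. The glucocorticoid receptor gene Nr3c1 was 3.14-fold higher on C3H Western than on C3H chow. Hnf4a, a liver and gut regulator, had its highest signal on C3H chow (318.0), 2.38-fold over C3H Western and at least 3.80-fold over C57BL/6 chow. No other receptor gene reached 2-fold or such a bound. Over all genes 7.67% to 17.1% passed 2-fold in a comparison, so single genes past it in these short lists say nothing about the lists. In the list of retinoid and sterol handling, 9 of 10 genes were measured. Hsd11b1, which regenerates corticosterone, gave 906.7 and 1683 in C57BL/6 on chow and Western diet and 2180 and 979.4 in C3H. C3H chow was 2.40-fold over C57BL/6 chow and 2.23-fold over C3H Western. The retinal dehydrogenase gene Aldh1a1 gave 221.6 and 478.1 in C57BL/6 on chow and Western diet and 19.8 and 226.8 in C3H. C57BL/6 Western was 2.16-fold over C57BL/6 chow and 2.11-fold over C3H Western, and C3H chow was under C57BL/6 chow by at least 2.65-fold and under C3H Western by at least 2.71-fold.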

How the data were processed

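Total RNA of 4 aorta samples, 1 per group, was extracted with Trizol, and biotin-labelled cRNA from 8 ug was hybridised to a 1-colour Affymetrix array, per the labels' protocols. The values the authors deposited are linear intensities of 22690 probe sets with a common trimmed mean. No source used here names the software or the background step. Leaving out 64 control sets, intensities were quantile normalized on the log2 scale. Gene names came from the platform annotation, and all 62 P450 genes matched RefSeq (GRCm38.p6) by Entrez identifier. The floor is the 40th percentile of all signals and is no detection call. A fold against a signal under it is a bound, with that signal raised to the floor. With 1 array a side, 2-fold differences were counted without a test. limma 3.58.1 (R 4.3.3) fitted additive strain and diet terms to sets past the floor on 2 or more arrays (eBayes with a mean trend, Benjamini-Hochberg over all sets) and was tested on simulated data. Python 3.11.15, numpy 2.4.6, pandas 2.3.3 and matplotlib 3.10.9 did the rest. Genes were named by a rule: members with the highest signals, the widest ranges in their role group or the largest differences, fixed members, and members whose sets disagree. Of the fixed members, Cyp4a10, Cyp26b1, Cyp2u1 and Cyp20a1 have no single-gene set here. Members, role groups and lists were chosen with earlier results of these data known. Alternatives were other scalings, floors, folds and probe set rules.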

Additional observations from a re-analysis of the deposited data

Results flagged for a closer look

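Cyp2b10 went opposite ways with Western diet in the strains, 4.63-fold higher in C57BL/6 and 7.91-fold lower in C3H, with 1 array for each group. The difference between the strains was not tested.

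Signal also appeared in 2 probe sets that name several genes and were left out of the comparisons. The set shared by Cyp4a31 and Cyp4a10, fatty acid hydroxylases induced through Ppara in liver, was above the floor on C57BL/6 Western only, with 118. The set shared by Cyp4f37 and Cyp4f16 was above it on C3H Western only, with 116. Neither exceeds the floor of 83.6 by 2-fold.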

How the results depend on the processing

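Counts of P450 genes past 2-fold were small, so single genes near the threshold or the floor moved them. With equal array medians 1 gene (Cyp4b1) in place of 3 differed on chow, since Cyp27a1 and Cyp7a1 came just short (log2 0.97 and 0.99). The median log2 difference of all genes with diet in C3H then moved from -0.01 to 0.11. Under a floor at the 25th percentile the counts were 8 of 29 and 7 of 21 between strains on chow and Western diet. With diet they were 9 of 32 in C57BL/6 and 6 of 19 in C3H, so more genes were counted. Under a floor at the 60th percentile they fell to 1 of 6 between strains on Western diet and 0 of 5 with diet in C3H. Cyp2b10, Cyp2c38 and Cyp2d22 lie under that floor on C3H Western. At 1.5-fold the counts were 7 of 14, 6 of 12, 9 of 15 and 6 of 12 in the same order. The share of all genes was not counted at these other floors or at 1.5-fold, so nothing is read from the size of these counts. With the mean over the probe sets of a gene, 1 gene differed with diet in C3H. In limma without a filter on dim sets, 2 of 75 P450 sets passed for strain, against 119 of all 22626 sets (0.526%). Both were sets of Cyp2b10 (log2 -1.66 and -2.58), and the variance prior had infinite weight. The other limma settings gave 0 P450 sets for strain and diet, as did no filter for diet. Differences of named genes were recomputed with other scalings and with the mean over the probe sets of a gene. Of these 380, 368 moved by less than the SD between probe sets of a gene, 12 moved more, and none of those called reversed. The 12 were 8 with the mean over the probe sets and 4 with cyclic loess. For a gene with 1 probe set that mean is the representative set itself. Its values could not move under the mean, so nothing is read from their agreement there. No other single set replaced the representative one, so a reversal between sets, as for Cyp2d13 on chow, could not appear there. No paired analysis was possible because each group has 1 array. Arrays were not left out in turn, since each group has only 1. Signals near the floor limit most members.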
